A study of Xenopus laevis with 24 samples.

Results

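A set of 40 transcript records, of 31306 in the table, was picked by mean level in whole *Xenopus laevis* gastrulae of 2 clutches. By that mean each was present in 1 clutch and nearly absent from the other. A record was taken into the set when its mean over the 12 libraries of 1 clutch was at least 2 FPKM (sequenced fragments, scaled to transcript length and library size) and its mean over the 12 libraries of the other clutch was at most 0.2 FPKM. Clutch E held 21 of these records, 0.0671% of the table, and clutch D held 19, 0.0607% of the table. For 18 of the 40 the ranges of the clutches overlapped. In the holding clutch, 10 of the 40 reached 1 FPKM in 4 or fewer of the 12 libraries, and 3 of these in only 1. The records were thus selected on their clutch means, and the difference between the clutches is described below with no test. After scaling each library to its upper quartile the same limits gave 24 records held by clutch E and 11 held by clutch D.

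Embryos, for which the labels name no strain or genotype, were exposed from cleavage onward in dishes of 25 and harvested at stage 10.5 as pools of 5. They received TTNPB at 1 µM, which activates retinoic acid receptors, AGN193109 at 1 µM, which acts on these receptors as an inverse agonist, or 0.1% ethanol as the vehicle. For every exposure 4 libraries came from clutch E and 4 from clutch D, 24 in all. A clutch is the eggs of 1 female fertilised together, so the embryos of a clutch are siblings, and the 2 clutches are the only independent families. Clutch, mother and any handling that went with the clutch cannot be told apart.

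*X. laevis* is an allotetraploid frog, and many of its genes exist in L and S copies on related chromosomes. The records are mostly sequences of single cDNA clones and messenger RNAs, so 1 gene can have several records, and reads can match more than 1 of them. The sources used here do not say how reads shared by near-identical records were divided, so a record near 0 need not mean a silent gene. At the start of gastrulation the embryo carries RNA laid down by the mother as well as RNA made from its own genome.

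Of the 40 records, 32 (80%) were described as cDNA clones, against 63.3% of the whole table. A gene name was available for 7, of which 6 are described here. Those held by clutch E were Gabrr1, a subunit of a GABA-gated chloride channel, *ugt3a2.L* and *ugt1a6.S*, enzymes of the UDP-glycosyltransferase family that attach sugars to small molecules, integrin alpha 5, a chain of the fibronectin receptor, and Xcad 2, a caudal-type homeobox gene. The one held by clutch D was secretagogin, a calcium-binding protein with EF hands. The other record carrying only a gene number was LOC780740, held by clutch E, for which the gene table has no entry.

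**Figure D1:**
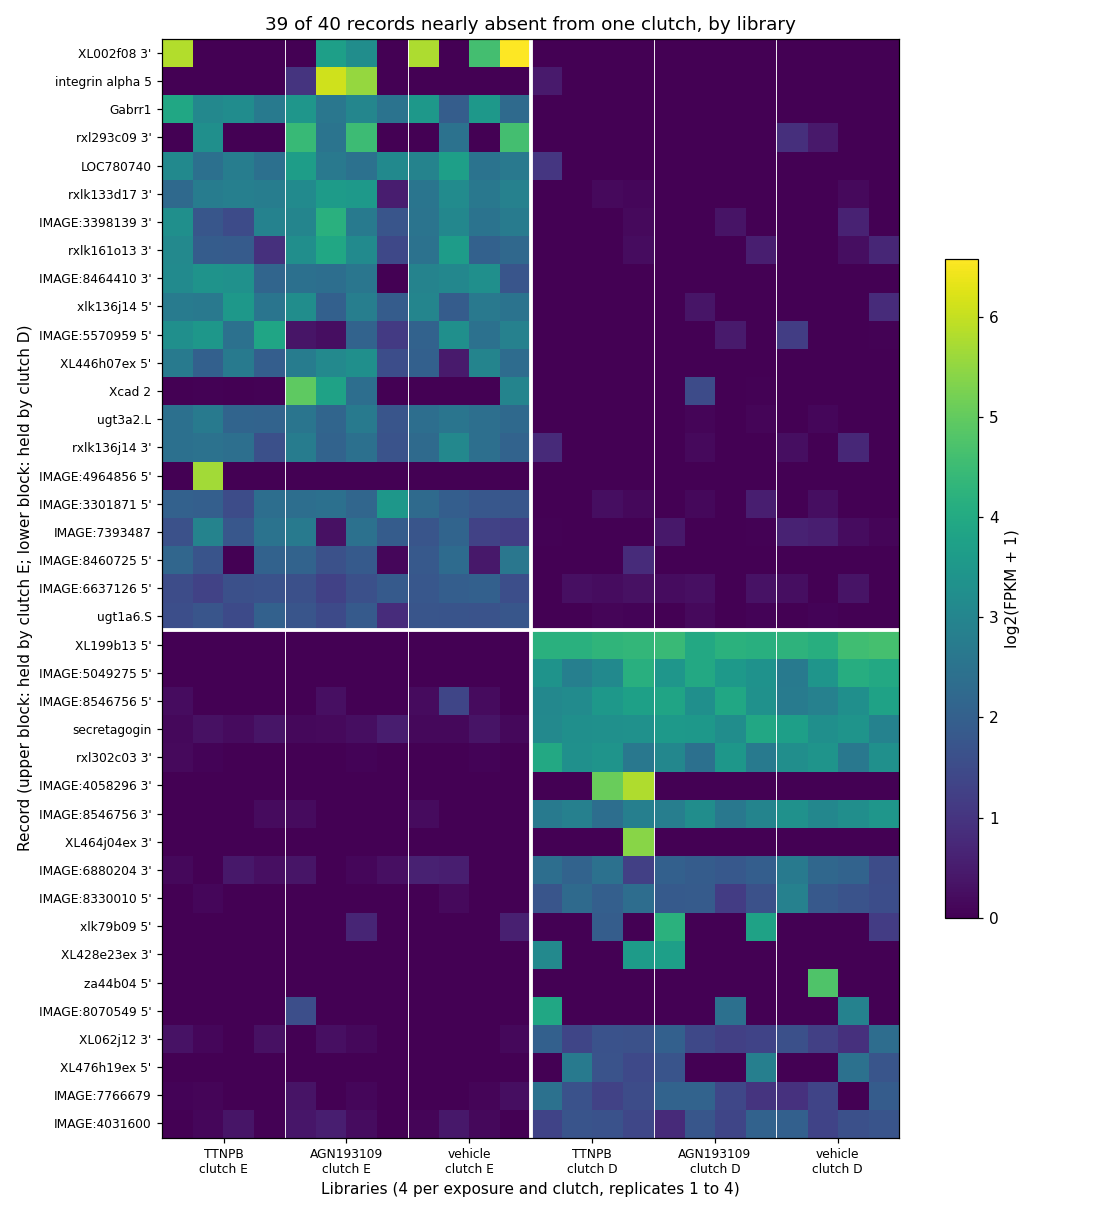
Level of 39 of the 40 records, as log2(FPKM + 1), in the 24 libraries, with the 21 records held by clutch E in the upper block and 18 held by clutch D in the lower block. In 22 of the 40 records every library of the holding clutch lies above the other clutch, while rows such as integrin alpha 5 and Xcad 2 are bright in 4 libraries or fewer.

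The records were split into 2 kinds by whether the ranges of the clutches overlapped. For 22 records, 12 held by clutch E and 10 held by clutch D, every library of the holding clutch lay above the highest library of the other clutch. For the remaining 18, 9 in each direction, the ranges overlapped. The first kind is called steady below and the second uneven. These names speak only of overlap between the clutches, not of spread within the holding clutch. The steady record rxlk161o13 3' had 0.896 to 14.2 FPKM in clutch E. The uneven record IMAGE:8464410 3' reached 1 FPKM in 11 libraries of clutch E. As the rule had used these values, the count of 22 was a description of the selection. Over the 19635 records averaging 1 FPKM or more, all libraries of clutch E lay above all of clutch D for 0.204%, and all libraries of clutch D lay above all of clutch E for 3.42%. The set was kept as selected when single libraries were left out. Leaving out any 1 library gave 12 to 13 steady records held by clutch E and 10 to 11 held by clutch D. Dropping a library cannot make ranges overlap that were apart. These counts could therefore not fall, and they do not test how stable the steady kind is.

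Gabrr1 encodes the rho-1 subunit, known from mammals as a channel subunit of the retina. In clutch E its levels were 14.1, 7.45, 8.16 and 5.53 FPKM in the TTNPB libraries, 10.02, 5.15, 7.16 and 4.70 FPKM in the AGN193109 libraries, and 10.5, 2.86, 10.3 and 3.81 FPKM in the vehicle libraries. It was listed at 0 in all 12 libraries of clutch D. No library of clutch D therefore reached the lowest of clutch E, and no ratio is given against a listed 0. A further 9 records described as GABA receptors or their subunits, including the B-type receptor Gabbr1, were looked up after these values were seen. Their means were at most 0.753 FPKM in clutch E and at most 0.517 FPKM in clutch D. Gabrr1 was thus the one record so described with a clutch mean above 1 FPKM, and in clutch E alone. Clones described without such a name were not covered.

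The glycosyltransferase records were the steadiest named records of clutch E. *ugt3a2.L* had 4.38, 5.52, 3.34 and 3.29 FPKM with TTNPB, 4.93, 3.45, 5.54 and 2.31 FPKM with AGN193109, and 4.22, 4.87, 4.26 and 3.76 FPKM with vehicle in clutch E. In clutch D its highest library had 0.0788 FPKM, and the mean was 4.16 ± 0.974 FPKM in clutch E and 0.0168 ± 0.0307 FPKM in clutch D (SD, n = 12 each), a ratio of 248. The ranges of the clutches were thus far apart for an enzyme record that varied little among the libraries that held it.

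*ugt1a6.S* belongs to the subfamily that in mammals conjugates bilirubin, steroids and drugs with glucuronic acid. In clutch E it had 1.99, 2.34, 1.79 and 3.12 FPKM with TTNPB, 2.35, 1.78, 2.66 and 0.795 FPKM with AGN193109, and 2.33, 2.30, 2.20 and 2.37 FPKM with vehicle. Its mean was 2.17 ± 0.565 FPKM in clutch E and 0.0279 ± 0.0403 FPKM in clutch D (SD, n = 12 each), a ratio of 77.7, and the highest library of clutch D had 0.128 FPKM. The lowest library of clutch E, AGN193109 replicate 4, was also the library with the lowest median level over all tested records, and its part in that value was not tested. These 2 records were 2 of the 32 in a list of genes that handle foreign compounds, where the whole set is 0.128% of the table. The plan for that list did not name glycosyltransferases, so the choice of the list may have set this count. It is not read as an enrichment, and the list was not tested. They lie on different chromosome sets by name, L and S, and no second record was found by name for either gene. Clones described without these names were not covered.

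LOC780740 had 7.64, 4.41, 5.89 and 4.40 FPKM with TTNPB, 11.6, 5.34, 4.51 and 7.68 FPKM with AGN193109, and 6.63, 12.1, 4.67 and 5.34 FPKM with vehicle in clutch E. In clutch D it had 1.05 FPKM in TTNPB replicate 1 and at most 0.000541 FPKM in the other 11 libraries. A single library thus carried almost all of its signal in clutch D, and even that library was below the lowest of clutch E. The record of clone IMAGE:3398139 (3' end), described as similar to heavy chain H3 of inter-alpha-trypsin inhibitor, a plasma protein made by liver in mammals, had 1.85 to 17.1 FPKM in clutch E with a median of 5.56 FPKM and at most 0.554 FPKM in clutch D. The 10 records of a list of maternal liver proteins summed to 1.54 to 10.6 FPKM in the libraries of clutch E and 2.65 to 10.3 FPKM in those of clutch D. Of these 10, 8 averaged below 1 FPKM. The 1 globin record found by description was at 0 in all 24 libraries. Clones described without such names were not covered, and these levels were not tested.

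Secretagogin, held by clutch D, had no overlap between the clutches. Its levels in clutch E were 0.109, 0.237, 0.138 and 0.306 FPKM with TTNPB, 0.0959, 0.126, 0.190 and 0.450 FPKM with AGN193109, and 0.0966, 0.105, 0.275 and 0.108 FPKM with vehicle. In clutch D they were 7.56, 8.73, 8.84 and 8.96 FPKM with TTNPB, 10.5, 10.4, 8.28 and 14.4 FPKM with AGN193109, and 12.02, 8.73, 9.59 and 6.55 FPKM with vehicle. The record was low but above 0 in every library of clutch E, unlike Gabrr1 in clutch D. The means were 0.186 ± 0.111 FPKM in clutch E and 9.55 ± 2.09 FPKM in clutch D (SD, n = 12 each), so that clutch D had 51.3 times the level of clutch E. No other record of this gene was found by name, and clones described without the name were not covered. The gene table lists an L and an S copy of the gene, and the description places the record on neither.

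**Figure D2:**
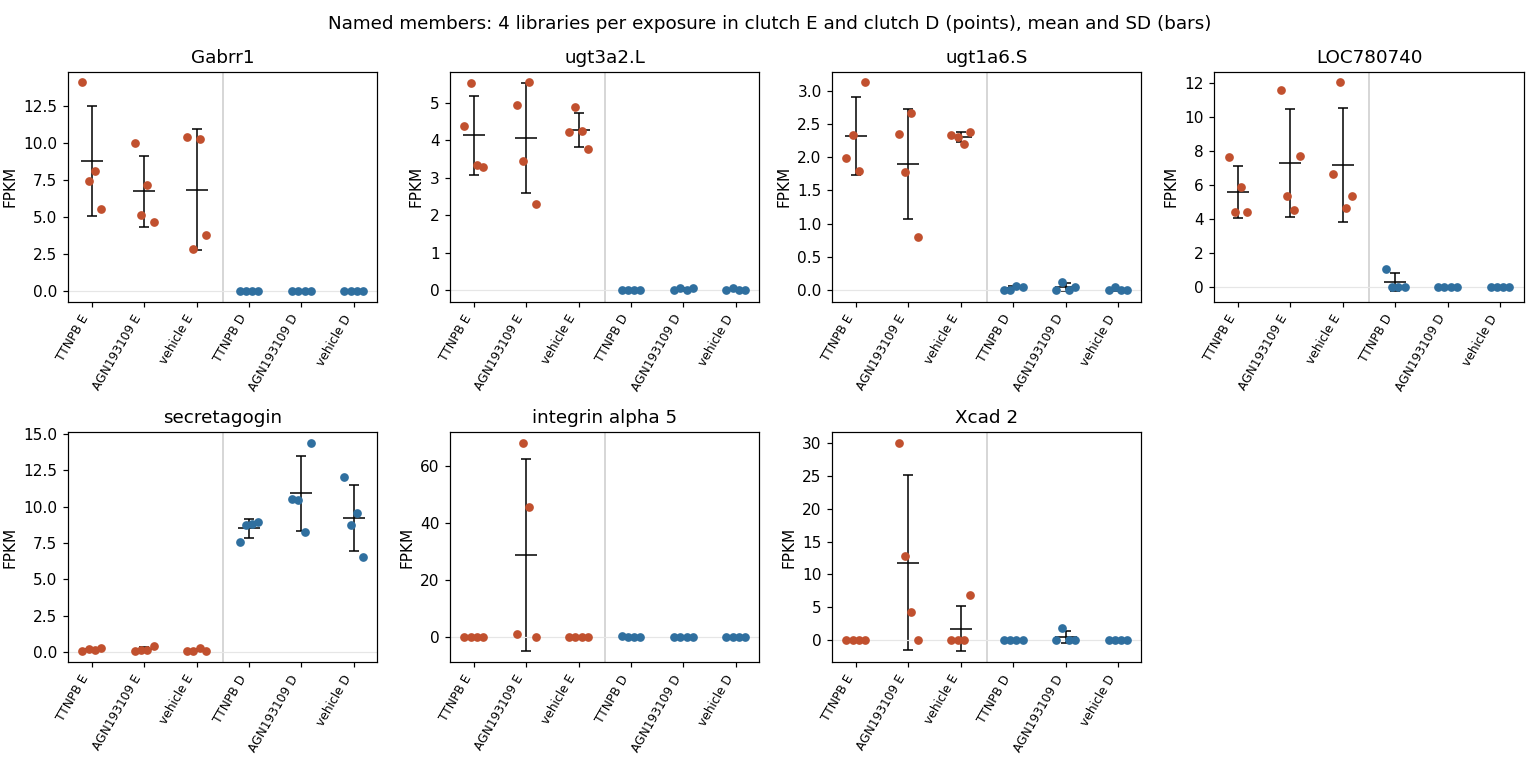
FPKM of 7 named records in the 4 libraries of each exposure, clutch E left of clutch D in each panel, with bars for the mean and SD of each group. Gabrr1, ugt3a2.L, ugt1a6.S and LOC780740 stand above clutch D in all 12 libraries of clutch E, secretagogin stands above clutch E in all 12 libraries of clutch D, and integrin alpha 5 and Xcad 2 reach over 1 FPKM in 4 libraries or fewer of the holding clutch.

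The highest records with this steady pattern were unnamed clones held by clutch D, named here after their values were seen. XL199b13 (5' end) had a mean of 1.8e-08 FPKM in clutch E and 18.6 ± 2.66 FPKM in clutch D (SD, n = 12), where it ranged from 14.7 to 23.8 FPKM with a median of 17.6 FPKM. IMAGE:5049275 (5' end) had 2.15e-06 FPKM in clutch E and 10.9 ± 3.82 FPKM in clutch D (SD, n = 12). Clone XL199b13 had the lowest relative spread of the 40 records, with a coefficient of variation of 14.3% over the libraries of clutch D. A second record of clone IMAGE:5049275, described without an end, had 0.706 ± 0.151 FPKM in clutch E and 0.811 ± 0.290 FPKM in clutch D (SD, n = 12 each), so the records of 1 clone gave different pictures of the clutches.

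Both ends of a clone were in the set in 2 cases, and these pairs share a source. Clone IMAGE:8546756 had means of 0.187 FPKM in clutch E and 9.76 ± 2.83 FPKM in clutch D for its 5' end. Its 3' end had 0.0342 FPKM in clutch E and 6.94 ± 1.73 FPKM in clutch D (SD, n = 12). The end reads xlk136j14 5' and rxlk136j14 3', which share a clone name but for the leading letter, had means of 5.54 ± 2.28 and 4.14 ± 1.45 FPKM in clutch E and 0.0873 and 0.141 FPKM in clutch D. The ends of each clone were on the same side in every library, and they are not independent records.

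Over the 22 steady records, the library with the most signal carried 10.7% to 23.2% of the sum (median 14.7%). The 12 held by clutch E had means of 2.17 to 7.48 FPKM in clutch E and 0 to 0.141 FPKM in clutch D. The 10 held by clutch D had means of 1.8e-08 to 0.187 FPKM in clutch E and 2.03 to 18.6 FPKM in clutch D. Over all 22 records the coefficient of variation over the 12 libraries was 14.3% to 72.2% (median 35.4%). The highest of the 3 exposure means was 1.05 to 2.31 times the lowest (median 1.32). In the other clutch 12 of all 40 records stayed under 0.001 FPKM in every library, 5 held by clutch E and 7 held by clutch D, and 3 were listed at exactly 0 in all 12, which were Gabrr1, XL446h07ex 5' and XL476h19ex 5'.

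Of the other 18 records, 10 reached 1 FPKM in 4 or fewer libraries of the holding clutch. These were 3 of the 9 held by clutch E and 7 of the 9 held by clutch D. The 9 held by clutch E had means of 2.40 to 20.6 FPKM in that clutch, and the 9 held by clutch D had means of 2.03 to 7.28 FPKM in theirs. The top library carried 13.8% to 100% of the sum (median 45.1%), and 1 to 11 libraries of the holding clutch reached 1 FPKM (median 4). Over 50% of the summed signal lay in 1 library for 3 of the 21 records held by clutch E and for 6 of the 19 held by clutch D. Among all records averaging 2 FPKM or more that share was 0.293% in clutch E and 0.308% in clutch D. Records that were at least 1 FPKM in all 12 libraries made up 38.1% of those held by clutch E and 42.1% of those held by clutch D, against 84.6% and 89.3% of all records with such a mean in clutch E and clutch D. The limits on the mean let in records of both kinds, so this is a description of what the rule selects.

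**Figure D3:**
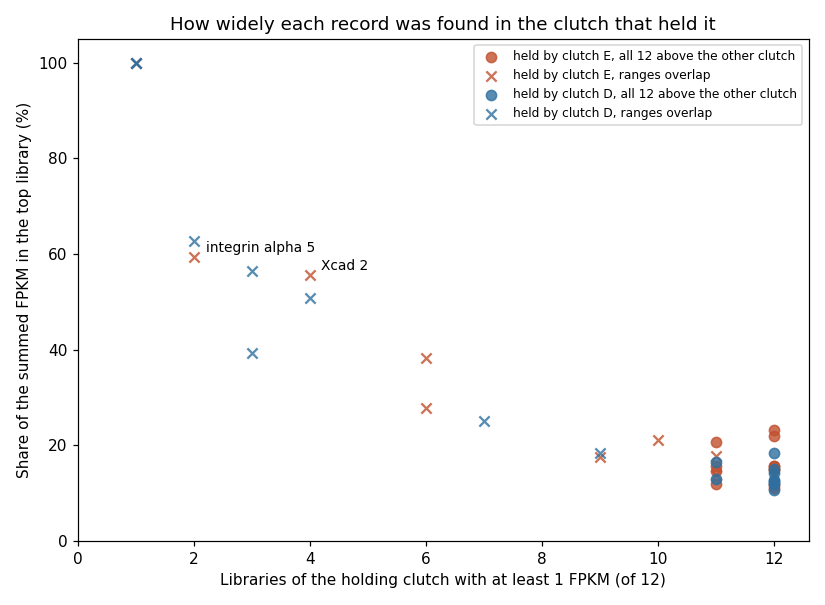
Number of libraries of the holding clutch, of 12, in which each of 39 records reached 1 FPKM (horizontal axis), against the share of the record's summed FPKM found in its top library in percent (vertical axis). Circles, records found above the other clutch in all 12 libraries, sit at 11 or 12 libraries and shares of 10.7% to 23.2%, while crosses spread up to 3 overlaid records near 100% in 1 library.

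Integrin alpha 5 and Xcad 2 were both of this second kind. The record of integrin alpha 5, through which gastrula cells bind fibronectin, had 0.980, 68.3, 45.6 and 1.36e-20 FPKM in the AGN193109 libraries of clutch E. In the TTNPB libraries of clutch E it had at most 0.000369 FPKM and in the vehicle libraries at most 0.00275 FPKM. In clutch D it had 0.397 FPKM in TTNPB replicate 1 and at most 0.00677 FPKM elsewhere. Thus 2 of 12 libraries of clutch E, replicates 2 and 3 of AGN193109, carried the record, and the other 10 had at most 0.980 FPKM.

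The table held 2 further integrin alpha 5 records, and these were present in both clutches. The record of the integrin alpha5 subunit averaged 8.73 ± 2.16 FPKM in clutch E and 10.4 ± 1.38 FPKM in clutch D, and the truncated cytoplasmic variant 2.48 ± 0.899 FPKM in clutch E and 2.81 ± 1.06 FPKM in clutch D (SD, n = 12 each). In the libraries that carried the selected record at 68.3 and 45.6 FPKM, the alpha5 subunit record had 7.89 and 11.1 FPKM. The lowest value of that record, 2.93 FPKM, was in AGN193109 replicate 4 of clutch E. Summed over the 3 records, the gene had 20.8 FPKM in clutch E and 13.2 FPKM in clutch D. The sum thus differed between the clutches by less, as a ratio, than the selected record alone. Of the sum in clutch E, 9.57 FPKM came from the selected record and so mostly from 2 libraries. Each of the other 2 records had a lower mean in clutch E than in clutch D.

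Xcad 2, described as an organizer-specific homeobox gene, belongs to the caudal family that patterns the posterior body. It had 30.1, 12.8, 4.24 and 1.07e-08 FPKM in the AGN193109 libraries of clutch E, 6.84 FPKM in vehicle replicate 4, and at most 0.0255 FPKM in the other 7 libraries of that clutch. In clutch D it had 1.82 FPKM in AGN193109 replicate 2 and at most 0.0206 FPKM in the others. The highest library of clutch D was thus above 8 of the 12 libraries of clutch E. A second record, described as xCAD2 protein, was present in every library, at 5.69 to 13.5 FPKM in clutch E and 12.3 to 18.4 FPKM in clutch D. Its means were 9.02 FPKM in clutch E and 15.4 FPKM in clutch D. Summed, the 2 records gave 13.5 FPKM in clutch E and 15.6 FPKM in clutch D, with 4.50 FPKM of the sum in clutch E from the selected record. In the gene table the name xCAD2 is a synonym of 2 genes. Each record is therefore called here by its description, and the sum may join records of different genes.

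**Figure D4:**
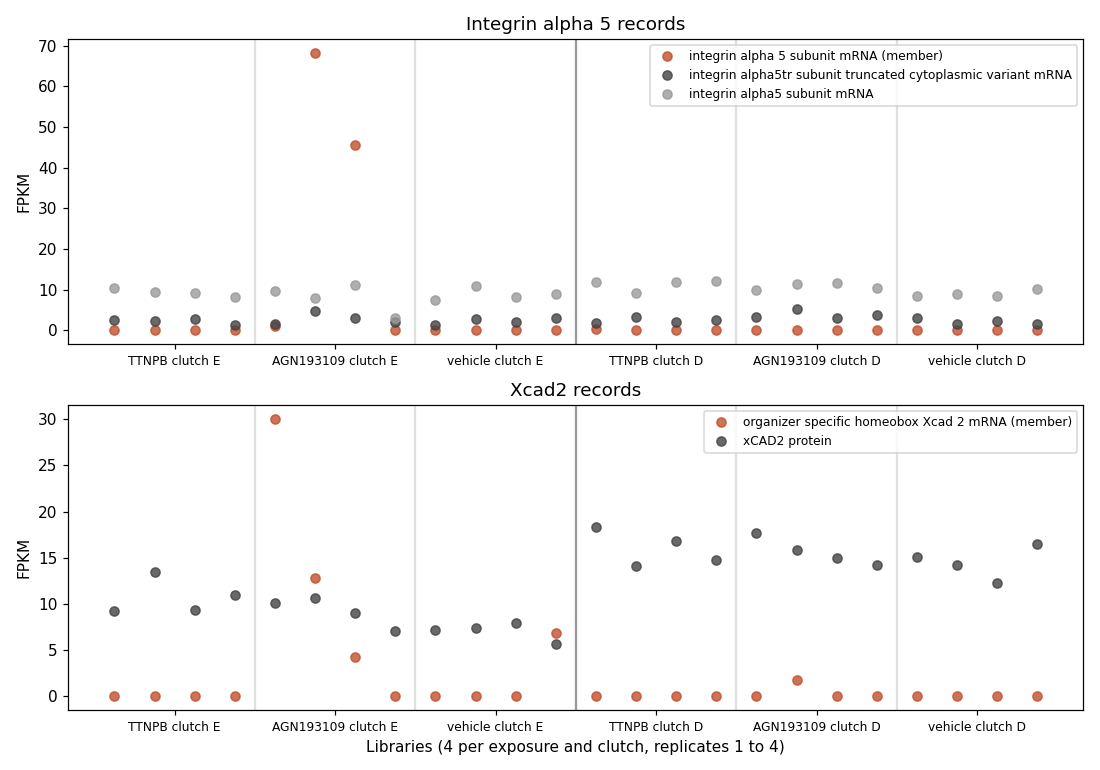
FPKM of the records of integrin alpha 5 and Xcad2 in each of the 24 libraries (points, replicates 1 to 4 of each exposure in clutch E and then clutch D). The selected record of each name is high in 4 libraries or fewer of its holding clutch and near 0 in most others. The other records of the same name are present in both clutches.

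Unnamed clones of this kind went further. IMAGE:4964856 (5' end) had 49.5 FPKM in TTNPB replicate 2 of clutch E and was under 0.001 FPKM in the other 23 libraries. XL464j04ex (3' end) had 41.5 FPKM in TTNPB replicate 4 of clutch D, and za44b04 (5' end) had 26.3 FPKM in vehicle replicate 2 of clutch D. For these 3 records a single library set both the mean and the membership. IMAGE:4058296 (3' end) had 32.5 and 54.8 FPKM in TTNPB replicates 3 and 4 of clutch D. XL002f08 (3' end), with the highest mean held by clutch E at 20.6 ± 30.9 FPKM (SD, n = 12), reached 1 FPKM in 6 libraries and 94.6 FPKM in 1 of them. The top library of the 18 uneven records was a TTNPB library in 4, an AGN193109 library in 2 and a vehicle library in 3 of the 9 held by clutch E. Of the 9 held by clutch D it was a TTNPB library in 4, an AGN193109 library in 4 and a vehicle library in 1.

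Steadiness over the exposures was read by applying the same limits to the 4 libraries of each clutch within 1 exposure. Of the 40 records 32 met them within TTNPB, 28 within AGN193109 and 22 within vehicle. Those held by clutch E met them in 17, 17 and 13 cases of 21, and those held by clutch D in 15, 11 and 9 cases of 19, in the same order of exposures. In either direction, 0.204% of all 31306 records met the limits within TTNPB alone, 0.249% within AGN193109 alone and 0.217% within vehicle alone. The selected records were 50% of the 64 records found within TTNPB, 35.9% of the 78 found within AGN193109 and 32.4% of the 68 found within vehicle. As the 3 exposures together had chosen the 40, this overlap is partly set by the choice.

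The limits were met in all 3 exposures by 15 records, in 2 by 14, in 1 by 9 and in none by 2. Gabrr1 and *ugt3a2.L* were among the 15. *ugt1a6.S* missed them with AGN193109, where its mean in clutch E was 1.90 ± 0.821 FPKM (SD, n = 4). LOC780740 missed them with TTNPB, where clutch D had 0.262 ± 0.524 FPKM, and secretagogin missed them with AGN193109, where clutch E had 0.215 ± 0.161 FPKM (SD, n = 4 each). These 3 fell just past a limit while their clutches stayed apart. Integrin alpha 5 met the limits with AGN193109 only. Xcad 2 was 1 of the 2 that met them in no single exposure. Of the 15 records that met the limits in all 3 exposures, 12 also had every holding library above the other clutch. Of these, 7 were held by clutch E and 5 by clutch D. Meeting the limits did not mean an even level. XL002f08 3', 1 of the 15, had means of 13.8, 5.10 and 42.9 FPKM with TTNPB, AGN193109 and vehicle in clutch E.

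The limits cut through a continuous range. The records just inside the lower limit were *ugt1a6.S* and IMAGE:6637126 5' for clutch E, both at 2.17 FPKM, and IMAGE:4031600 and IMAGE:7766679 for clutch D, both at 2.03 FPKM. Just outside it were IMAGE:6945260, at 1.86 FPKM in clutch E and 0.186 FPKM in clutch D, and a clone similar to a keratin, IMAGE:3549933 3', at 1.54 FPKM in clutch E and 0.124 FPKM in clutch D. On the side of clutch D they were rxl252h17 3', at 0.157 FPKM in clutch E and 1.9994 FPKM in clutch D, and rxlk67l17 3', at 0.163 FPKM in clutch E and 1.86 FPKM in clutch D. These records differ from members by little more than the place of the limit.

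At the upper limit for the low clutch, Xcad 2 at 0.154 FPKM and IMAGE:5570959 5' at 0.142 FPKM in clutch D were just inside. MGC82772 (2.39 FPKM in clutch E, 0.206 FPKM in clutch D) and MGC82997 (4.65 FPKM in clutch E, 0.210 FPKM in clutch D) were just outside. In the other direction IMAGE:6880204 3' at 0.187 FPKM in clutch E was just inside. LOC414504 (0.216 FPKM in clutch E, 2.19 FPKM in clutch D) and IMAGE:4030562 (0.234 FPKM in clutch E, 2.04 FPKM in clutch D) were just outside.

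Whether the retinoid ligands moved these records was tested within the clutch that held each. Values were compared as log2(FPKM + 1) with limma over 19635 records, a threshold of 0.05 and Benjamini-Hochberg adjusted p-values over all of them. All 40 records passed the filter on low values, as the rule itself required. Replicates were aliquots that may come from the same dish, so these p-values measure the spread between aliquots. TTNPB against vehicle called none of the 40, while it called 0.525% of all tested records in clutch E and 0.311% in clutch D. Unadjusted p-values under 0.05 were seen for 1 of 21 records in clutch E and 4 of 19 in clutch D, against 4.29% and 5.1% of all tested records. AGN193109 against vehicle called none of the 40 and 0.0102% of all tested records in each clutch. There 6 of 21 records in clutch E and 3 of 19 in clutch D had unadjusted p-values under 0.05, against 10.2% and 4.94% of all records. Many uneven records entered the set through the few libraries in which they were high. Among those counted were integrin alpha 5 with AGN193109 and IMAGE:4058296 3' with TTNPB. The counts of unadjusted p-values here and below thus partly use the values that selected the records, and are a description.

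TTNPB against AGN193109 called 1 of the 40 records, while it called 1.03% of all tested records in clutch E and 0.397% in clutch D. Unadjusted p-values under 0.05 were seen for 7 of 21 records in clutch E and 3 of 19 in clutch D, against 11.7% and 4.71% of all tested records. The record called was the clone IMAGE:5570959 (5' end), whose description names no gene. It was an uneven record and met the limits within TTNPB only. Its mean was 1.24 FPKM in clutch E with AGN193109 and 0.326 FPKM in clutch D with vehicle. With vehicle it had 5.68 FPKM in clutch E, so its level there did not rest on the TTNPB libraries alone. In the TTNPB libraries of clutch D, with a mean of 1.2e-10 FPKM, it was nearly absent. The TTNPB libraries of both clutches entered the means that selected it, and the difference below partly uses those values. In clutch E it had 8.67, 10.1, 4.44 and 13.6 FPKM with TTNPB, 0.287, 0.191, 3.28 and 1.19 FPKM with AGN193109, and 3.23, 8.66, 4.47 and 6.36 FPKM with vehicle. The TTNPB libraries all lay above the AGN193109 libraries, and the vehicle libraries overlapped with both. The difference TTNPB minus AGN193109 was 2.30 ± 0.36 on the log2 scale (SE, 95% interval 1.55 to 3.06, limma adjusted p = 0.000552). TTNPB minus vehicle was 0.59 (interval -0.16 to 1.35, limma adjusted p = 1), and AGN193109 minus vehicle was -1.71 (interval -2.46 to -0.96, limma adjusted p = 0.25), the last being past the threshold without AGN193109 replicate 3 of clutch E (limma adjusted p = 0.0234). In clutch D the highest library of this record had 1.27 FPKM.

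The steady named records had no call between exposures. For secretagogin in clutch D, TTNPB minus vehicle was -0.08 (95% interval -0.44 to 0.28) and AGN193109 minus vehicle 0.22 (interval -0.14 to 0.58) on the log2 scale. For *ugt3a2.L* in clutch E the differences were -0.06 (interval -0.45 to 0.33) with TTNPB and -0.11 (interval -0.49 to 0.28) with AGN193109. For *ugt1a6.S* they were -0.01 (interval -0.40 to 0.38) with TTNPB and -0.24 (interval -0.63 to 0.15) with AGN193109. The lowest and highest bounds of these intervals are thus -0.63 and 0.58. Gabrr1 was less tightly bound, with 0.42 (interval -0.20 to 1.03) for TTNPB and 0.10 (interval -0.52 to 0.71) for AGN193109, and so was LOC780740, with -0.26 (interval -0.83 to 0.31) for TTNPB and 0.02 (interval -0.55 to 0.60) for AGN193109.

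**Figure D5:**
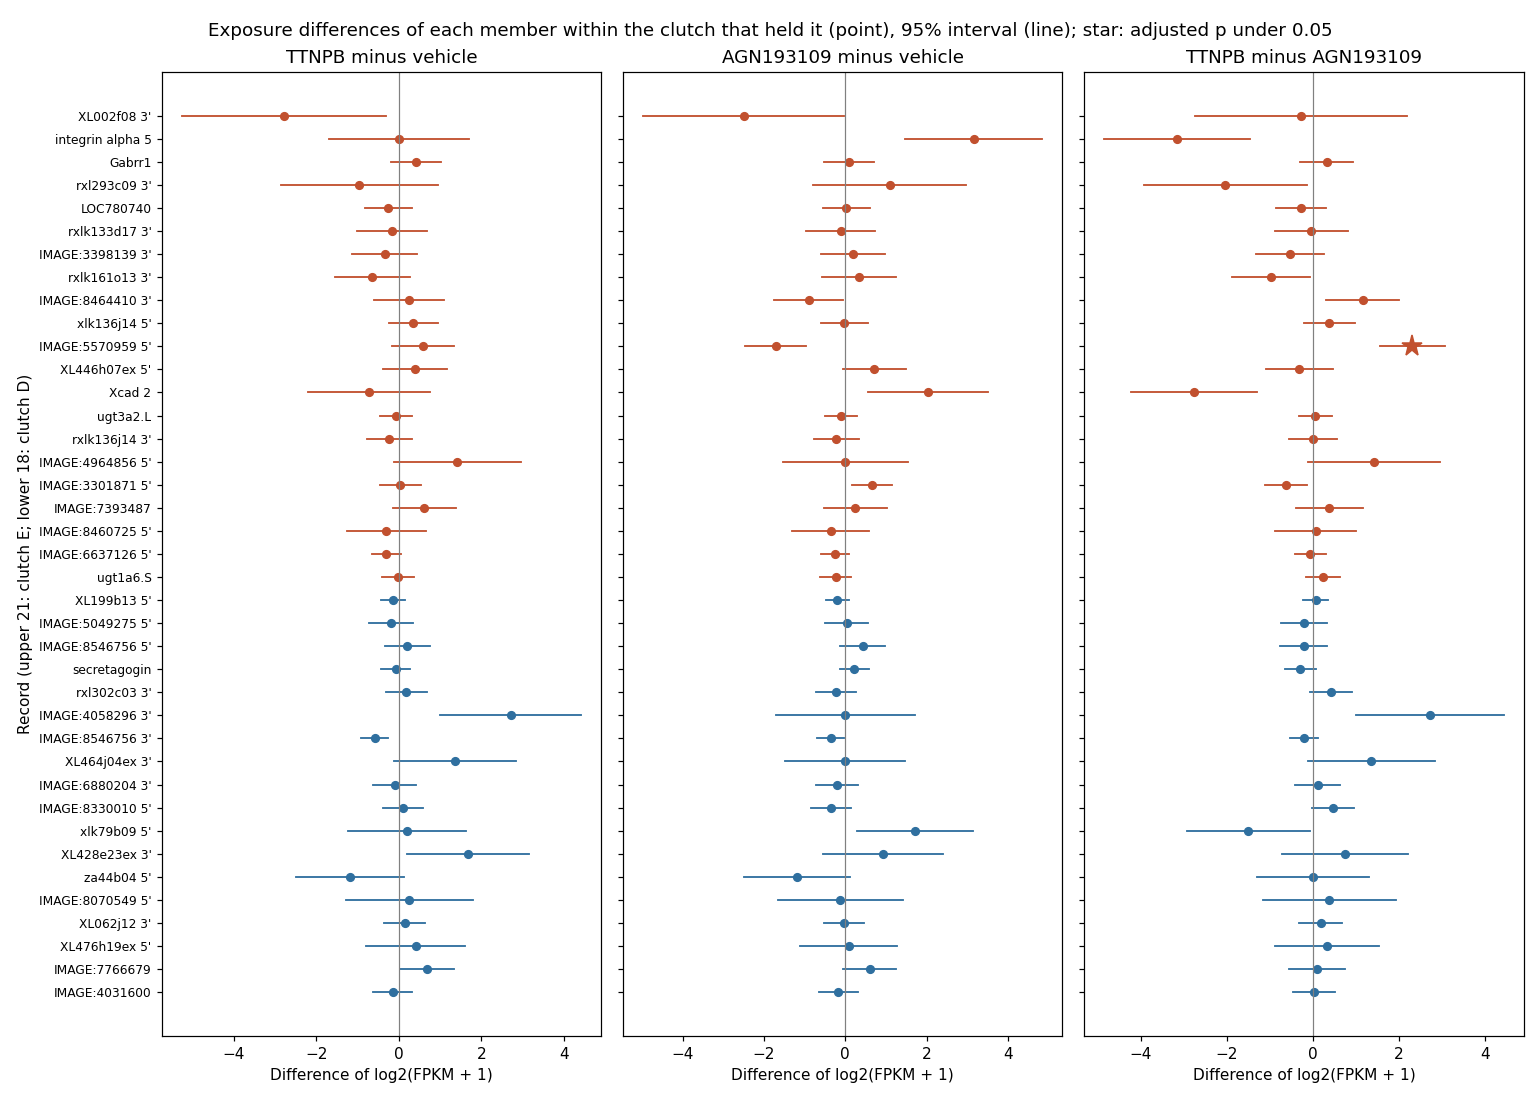
Difference between exposures in log2(FPKM + 1) for 39 records in the clutch that held each (point) with its 95% interval (line), for TTNPB minus vehicle, AGN193109 minus vehicle and TTNPB minus AGN193109. The star marks IMAGE:5570959 5', at 2.30 in the third panel, the one record past the adjusted threshold. The longest lines belong to uneven records such as XL002f08 3', and those of secretagogin and ugt3a2.L are short and cross 0 in all 3 panels.

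The uneven named records had large differences that missed the threshold. They entered the set and passed the filter on low values through a few, mostly AGN193109, libraries, so the differences below use the values that selected them and are a description. Integrin alpha 5 in clutch E differed by 3.16 ± 0.82 between AGN193109 and vehicle (SE, limma adjusted p = 0.295) and by -3.16 ± 0.82 between TTNPB and AGN193109 (limma adjusted p = 0.0706). Without AGN193109 replicate 4 of clutch E, the difference between AGN193109 and vehicle was 4.21 and passed it (limma adjusted p = 0.0285). Xcad 2 in clutch E differed by 2.04 ± 0.71 between AGN193109 and vehicle (limma adjusted p = 0.40) and by -2.77 ± 0.71 between TTNPB and AGN193109 (limma adjusted p = 0.0666). Between TTNPB and AGN193109, integrin alpha 5 passed without AGN193109 replicate 1 or 4 of clutch E (limma adjusted p = 0.0111 and 0.00098), and Xcad 2 without AGN193109 replicate 4 or vehicle replicate 4 of clutch E (limma adjusted p = 0.00075 and 0.022). Calls on these records thus turned on single libraries.

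A response to exposure that differed between the clutches was called for 0 of the 40 records by limma's interaction test, and for 0.0306% of all tested records, with 5 of the 40 at an unadjusted p under 0.05 against 4.76% of all. The rule kept each record near 0 in 1 clutch, so this test largely repeats the exposure difference in the holding clutch. For Gabrr1, listed at 0 throughout clutch D, both values were 0.42 with TTNPB. The counts are thus a description, and they do not test whether the clutches responded differently. The median difference of the 21 records held by clutch E was -0.06 with TTNPB and 0.00 with AGN193109 against vehicle, where all tested records had medians of 0.04 and -0.10 in that clutch. The 19 records held by clutch D had medians of 0.18 with TTNPB and 0.00 with AGN193109, where all tested records had -0.01 and 0.04.

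The 40 records are 0.128% of the table, so lists of this size could hold few of them, and no list was tested. Outside the foreign-compound list, 1 of 78 records of peptidases and their inhibitors was a member, the clone similar to inter-alpha-trypsin inhibitor. None of the records on the lists of mobile elements, immune loci, zinc finger proteins, histones, ribosomal proteins, mitochondrial genes, lectins and egg coat proteins, solute carriers or keratins was a member. Records were placed on lists by description or gene symbol, and 32 of the 40 were described as cDNA clones. Such descriptions mostly give only a clone name, so members of these families among the clones could be missed.

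The libraries differed in ways that touch these values. The median of tested records was 2.77 to 5.04 FPKM in the libraries of clutch E and 5.12 to 5.76 FPKM in those of clutch D, with no overlap. The lowest was AGN193109 replicate 4 of clutch E, in which the 10 highest records took 79.2% of all FPKM, against 44.1% to 62.8% elsewhere. That library was the lowest of clutch E for 3 of the 12 steady and 4 of the 9 uneven records held by that clutch. TTNPB replicate 4 and vehicle replicate 2 of clutch E were each the lowest for 3 of the 12 steady records too. Without AGN193109 replicate 4 of clutch E the limits gave 21 records held by clutch E and 17 held by clutch D. Of 16 gene lists, the summed level lay lower in every library of clutch E than in any of clutch D for 3, and for the other 13 the ranges overlapped or were at 0. No test of these sums was run. A list of 14 gastrula gene records, 13 of them tested, summed to 248 to 551 FPKM in clutch E and 565 to 670 FPKM in clutch D, and 8 egg and oocyte records to 62.5 to 96.3 FPKM in clutch E and 115 to 143 FPKM in clutch D. The part of such differences in the records described here was not tested, and in pools of whole embryos fewer cells with a transcript and less transcript per cell cannot be told apart.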

How the data were processed

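RNA from pools of 5 embryos was amplified to cDNA (NuGEN Ovation V2) and sequenced on ABI SOLiD, per the labels' protocols. The submitters' processing notes list Bowtie, TopHat and Cufflinks without versions, and the aligned genome is not given in sources used here. FPKM of 31306 records in 24 libraries were deposited. The labels name 5 replicates in a clutch, and 4 for each exposure and clutch are analysed here. Depth is unknown, since FPKM keeps none. Of the 276 library pairs 0 were identical.

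The rule, lists and tests were chosen with earlier results of these data known. Exposure contrasts were fitted in limma 3.58.1 (R 4.3.3) to log2(FPKM + 1) of records averaging 1 FPKM or more, as 6 group means with trended empirical Bayes variance, and checked on simulated data. This scale understates changes of low records.

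Named records were the 8 per direction with the highest mean and a gene name, those past the threshold and those next to each limit. Other records of the same gene names were added. Names came from descriptions or, for 2 of 3 LOC numbers among members, from a RefSeq gene table (assembly Xenopus_laevis_v10.1; 2338 of 2547 LOC numbers, 2224 with a symbol). The set includes 1 record that is counted but not reported here by name or value. Alternatives were other limits, medians, scalings, pseudocounts, filters, designs, array weights and each library left out.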

Additional observations from a re-analysis of the deposited data

Results flagged for a closer look

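Within groups of 4 libraries, 2 values of named records lay far from the other 3 by Dixon's gap test at its 95% critical value. Secretagogin had 7.565 FPKM in TTNPB replicate 1 of clutch D, below 8.73 to 8.96 FPKM in the other replicates, with a gap of 0.835 of the range. Xcad 2 had 6.844 FPKM in vehicle replicate 4 of clutch E, with the other replicates near 0. In all, 21 groups of 8 records were examined, and chance alone marks about 5% of groups.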

How the results depend on the processing

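The counts of selected records, 21 held by clutch E and 19 by clutch D, moved with the limits. They were 37 and 41 with a limit of 0.5 FPKM in the low clutch, 2 and 1 with exact zeros there, 38 and 44 with at least 1 FPKM and 11 and 7 with at least 5 FPKM in the high clutch. Medians in place of means gave 49 held by clutch E, with 27 of the 40 records kept over both directions, and upper-quartile scaling 11 held by clutch D. Within TTNPB, AGN193109 and vehicle alone, 32, 28 and 22 of 40 records became 53, 53 and 52 of 78 at 0.5 FPKM. They became 3, 3 and 2 of 3 at exact zeros, 57, 59 and 50 of 82 at 1 FPKM and 13, 14 and 11 of 18 at 5 FPKM. A limit of 0.1 FPKM gave 21 of 27 within TTNPB, and medians gave 50 of 69 within AGN193109 and 44 of 69 within vehicle. As the size of the set changed too, a higher count is not read as a steadier set. A looser limit can only add records to the set, and a stricter one can only remove them. The cause of the shifts with medians and scaling was not tested.

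Leaving out 1 library gave 20 to 23 records held by clutch E and 15 to 20 by clutch D, 29 to 35 within TTNPB, 25 to 31 within AGN193109 and 21 to 26 within vehicle alone. Of the steady records it gave 12 to 13 held by clutch E and 10 to 11 by clutch D. Counting these was an alternative chosen after seeing the data. With the set kept as selected, leaving out 1 library could only hold or raise these counts, so it did not test their stability. It gave 0 to 1 calls for TTNPB against vehicle (IMAGE:4058296 3' without TTNPB replicate 1 or 2 of clutch D), 0 to 1 for AGN193109 against vehicle, 1 to 4 for TTNPB against AGN193109 and 0 to 0 for the interaction. The most, 4, came without AGN193109 replicate 4 of clutch E (integrin alpha 5, Xcad 2, IMAGE:5570959 5' and rxlk133d17 3'). IMAGE:4058296 3', integrin alpha 5 and Xcad 2 entered the set and passed the filter through the few libraries where they were high. Calls on them thus use the values that selected them, and are a description.

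For TTNPB against AGN193109 the 1 call became 0 with a mean of at least 5 FPKM, a filter that left 3 of the 40 records and removed IMAGE:5570959 5' itself. It also became 0 with additive terms, where that record differed by 1.09 (limma adjusted p = 0.215). It became 3 with quantile normalization, 4 with array weights (with integrin alpha 5 and Xcad 2 among those added) and 2 with the replicate number as a block, adding IMAGE:8464410 3'. Array weights gave 2 calls for AGN193109 against vehicle, integrin alpha 5 and Xcad 2. All calls on these 2 records use the values that selected them, and are a description. The numbers showed no pairing by this measure: own-number deviations correlated best in 5 of 24 cases. The median correlation was 0.004 for the same number and -0.003 for other numbers. Whether libraries shared a dish was not tested. With each library left out, the difference of IMAGE:5570959 5' stayed between 2.07 and 2.68 (limma adjusted p 3.73e-05 to 0.0048). It came nearer the threshold with a pseudocount of 0.1 (limma adjusted p = 0.0492) and with each clutch fitted alone (limma adjusted p = 0.0209).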
